A study of Mus musculus with 6 samples.

Results

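Mir34a, Mir34b and Mir34c encode the miR-34 family, and the 3 rows of those names were taken by gene name from a deposited table of 1155 mouse miRNA genes. They were measured by small RNA sequencing in mouse embryonic fibroblasts, connective tissue cells grown from embryos, in 3 wild-type (WT) libraries and 3 libraries from cells labelled Fbxw7 KO. Both genotypes were cultured in DMEM with serum and non-essential amino acids. No treatment, time point, embryo age or strain is given for either group, nor how Fbxw7 was knocked out, nor whether replicates are separate embryos, separate cultures or repeats of one. The p-values therefore measure only how these libraries spread, which may be technical. The comparison asks which miRNAs differ between fibroblasts with and without Fbxw7, the part of a ubiquitin ligase that picks proteins such as Myc, cyclin E, Jun and Notch for destruction.

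The miR-34 genes are among the best known direct targets of p53, the transcription factor that halts the cell cycle or starts cell death after DNA damage or other stress. Mir34a has a transcription unit of its own, while Mir34b and Mir34c are processed from a common primary transcript. Their mature miRNAs repress mRNAs of cell cycle and survival genes, among them Cdk6, Ccnd1, Met and Bcl2. Mir34b and Mir34c, with the related Mir449 genes, are also known from multiciliated epithelium and from the testis.

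Mir34a lies on chromosome 4 (mm10, 150068454 to 150068555, plus strand). In GENCODE M21 the last 17 bases of its hairpin overlap Gm37795, an unconfirmed transcript (class TEC) on the same strand. Mir34c (51103034 to 51103110) and Mir34b (51103562 to 51103645) lie on the minus strand of chromosome 9, with 451 bases between them. Both are inside an intron of the protein-coding gene Btg4, which is transcribed from the opposite strand. Counting ignored strand, so a read from Btg4 over these intervals could not be told from a miR-34 read. No other row of the table overlaps a member.

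The hairpins are shown because they carry both what the family shares and how its members differ. All 3 were found in RefSeq (GRCm38.p6). Capitals mark GGCAGUG, which is the seed (bases 2 to 8, the part that pairs with targets) of mature miR-34a-5p and miR-34b-5p, and which each hairpin holds at 1 place towards its 5′ end.
Mir34a: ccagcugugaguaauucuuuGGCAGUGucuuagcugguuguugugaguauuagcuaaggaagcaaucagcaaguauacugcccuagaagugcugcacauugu
Mir34b: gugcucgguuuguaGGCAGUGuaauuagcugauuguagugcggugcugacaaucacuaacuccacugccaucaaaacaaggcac
Mir34c: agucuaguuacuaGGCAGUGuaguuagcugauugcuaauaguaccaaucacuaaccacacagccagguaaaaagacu

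Over the 23 letters that begin 1 base before GGCAGUG, the Mir34b and Mir34c hairpins had 21 letters in common. The differences were A11G and U23C, with positions counted from 1 at the first of the 23 letters, the Mir34b letter first and the Mir34c letter last. Compared position by position without gaps, Mir34a had 12 of the 23 in common with Mir34b and 11 with Mir34c. Each hairpin holds UUAGCUG after GGCAGUG, but 1 base earlier in Mir34a. Without gaps, letters shifted in this way count as different, so the numbers for Mir34a understate its likeness to the others. Among the 926 of 1155 rows with a hairpin sequence, the longest stretch that any member shared with another was 11 bases. No longer read thus fits a member and another of these rows exactly. The remaining rows and reads with mismatches were not checked, and Mir34b and Mir34c are close enough that 1 mismatch may matter.

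The mature miRNAs that follow show which seeds fall together, with bases 2 to 8 in capitals. Mature miR-34c-5p and Mir449b are named here without a sequence.
mmu-miR-34a-5p: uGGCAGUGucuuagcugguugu
mmu-miR-34b-5p: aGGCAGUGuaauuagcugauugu
mmu-miR-449a-5p: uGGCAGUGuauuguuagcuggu
mmu-miR-449c-5p: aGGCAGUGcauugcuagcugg
mmu-miR-34a-3p: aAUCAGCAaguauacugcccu
mmu-miR-34b-3p: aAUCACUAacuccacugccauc
mmu-miR-34c-3p: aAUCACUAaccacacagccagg

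The seed GGCAGUG belongs to 4 of the 1738 mature entries of the RefSeq table (0.23%), and all 4 are of the Mir34 and Mir449 genes. Its letters occur on the sense strand of 17 of the 1005 hairpins (1.69%). On the 3′ arm the family divides: miR-34b-3p and miR-34c-3p share AUCACUA, a seed of no other mature miRNA in the table, and miR-34a-3p has AUCAGCA, which is its alone there. The count table has 1 value per hairpin, so its arms could not be measured apart.

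Library totals ran from 2932439 to 5019700 counts, with 484 to 532 rows detected. The first principal component of the tested miRNAs (65.2% of the variance) separated the genotypes, and the second (17.5%) set Fbxw7 KO replicate 3 apart from the other KO libraries. The Fbxw7 transcript was not analysed here, so the labels were not checked against the targeted gene.

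All 3 members were more abundant in Fbxw7 KO fibroblasts than in WT. The fitted factor was nearly the same for Mir34b and Mir34c and smaller for Mir34a, a difference that the ratios given below did not show. The fitted rises were 1.92-fold for Mir34b, 1.77-fold for Mir34c and 1.41-fold for Mir34a. In every case the KO libraries lay above all WT libraries. Of the 283 miRNAs with enough counts to test, 15.2% passed the same test as higher in KO, and 23.7% had 3 KO libraries above the 3 WT libraries.

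Mir34b, the middle member by level, had 791, 770.4 and 1220.2 CPM (counts scaled to the TMM-adjusted library total) in WT replicates 1 to 3 and 1573, 1549.6 and 2228 CPM in Fbxw7 KO replicates 1 to 3. These values rest on 3241 to 8696 counts a library. WT replicate 3 and KO replicate 3 were the high libraries of their genotypes, and the lowest KO library was still above the highest WT library. The WT mean was 927 ± 254 CPM and the KO mean 1783 ± 385 CPM (SD, n = 3). The log2 fold change was 0.94 ± 0.219 (SE), with an edgeR adjusted p of 0.0161. The call ended without WT replicate 1 (log2 fold change 0.84, edgeR adjusted p = 0.0770) or WT replicate 2 (0.84, adjusted p = 0.0602).

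Mir34c, its neighbour on the same primary transcript, had 2648, 2465 and 3645 CPM in WT replicates 1 to 3. In Fbxw7 KO replicates 1 to 3 it had 4727, 4598 and 6173 CPM, and counts over all libraries ran from 10371 to 24099. The libraries stood in the same order as for Mir34b within each genotype, with replicate 2 lowest and replicate 3 highest. Means were 2919.6 ± 635 and 5166 ± 875 CPM (SD, n = 3). The log2 fold change was 0.82 ± 0.188 (SE), with an edgeR adjusted p of 0.0154. Again the call ended without WT replicate 1 (0.76, edgeR adjusted p = 0.0719) or WT replicate 2 (0.73, adjusted p = 0.0602).

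Mir34a, the member with its own transcript, had 489, 366 and 389 CPM in WT replicates 1 to 3 and 559.9, 587 and 603 CPM in Fbxw7 KO replicates 1 to 3, from 1498 to 2438 counts a library. Here WT replicate 1, not replicate 3, was the high WT library, and the KO libraries lay close together. Means were 415 ± 65.6 and 583 ± 21.6 CPM (SD, n = 3). The log2 fold change was 0.49 ± 0.143 (SE), with an edgeR adjusted p of 0.0365. Its call was the least stable of the 3. It ended without WT replicate 2 (0.42, edgeR adjusted p = 0.151), WT replicate 3 (0.43, adjusted p = 0.0926), Fbxw7 KO replicate 1 (0.52, adjusted p = 0.0897) or Fbxw7 KO replicate 2 (0.46, adjusted p = 0.134).

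**Figure D1:**
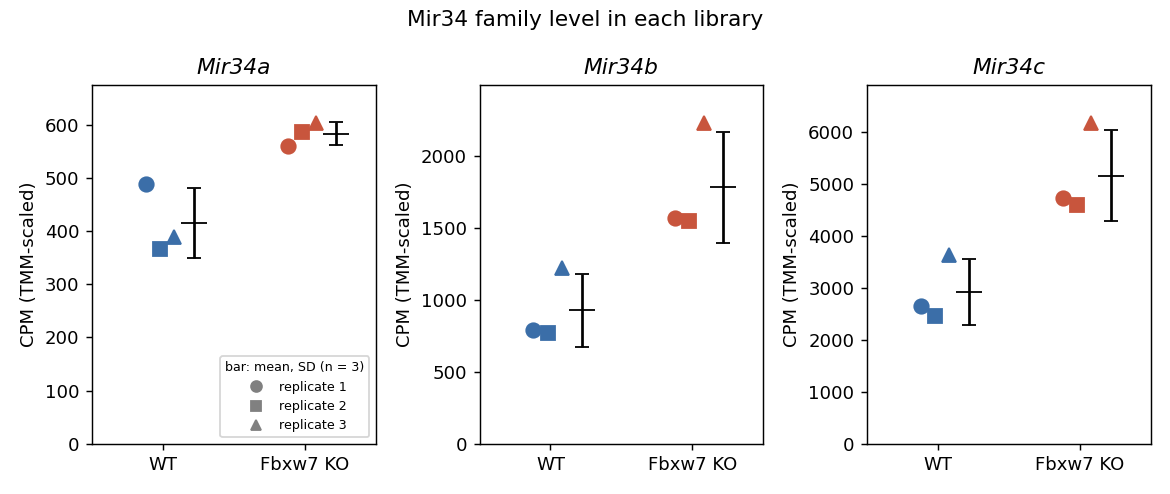
Level of Mir34a, Mir34b and Mir34c (y axes, CPM on TMM-scaled library totals, from 0) in each WT and Fbxw7 KO library, with marker shapes for the replicate numbers and black bars for mean and SD (n = 3). All KO points lie above all WT points for each member. Replicate 3 is the high WT library for Mir34b and Mir34c, while replicate 1 is for Mir34a.

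Fbxw7 KO replicate 3, the library set apart, had the highest level of each member. Without it the log2 fold changes were 0.76 for Mir34b (edgeR adjusted p = 0.0255), 0.68 for Mir34c (adjusted p = 0.0187) and 0.47 for Mir34a (adjusted p = 0.0486), and all 3 calls held.

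By the size of the log2 fold change, Mir34b ranked 27, Mir34c 31 and Mir34a 55 from the top among the 283 tested miRNAs, whose median was 0.05. In the plot of all tested miRNAs the family thus sits in the upper, but not the outermost, part of the cloud. Together the 3 members held 0.422% ± 0.11 of all counts in the WT libraries and 0.768% ± 0.146 in the KO libraries (SD, n = 3), with ranges of 0.332% to 0.545% and 0.676% to 0.936%.

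**Figure D2:**
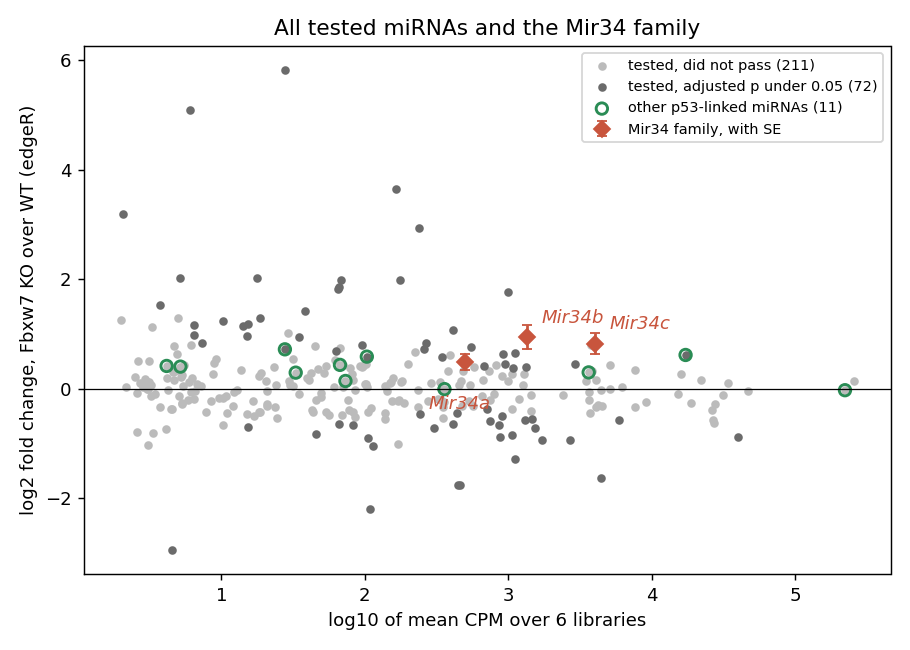
Log2 fold change of Fbxw7 KO over WT (y axis, edgeR) against the log10 of the mean CPM over 6 libraries (x axis) for the 283 tested miRNAs. Dark points are the 72 that passed at an adjusted p under 0.05, green rings the 11 other p53-linked miRNAs and red diamonds the Mir34 family with its SE, at 0.49, 0.94 and 0.82 for Mir34a, Mir34b and Mir34c.

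Levels of different genes were compared per length, on the authors' FPKM scale. Mir34c was the most abundant member and Mir34a the least in 6 of 6 libraries. Mir34c had 37669 ± 8542 FPKM in WT against 67703 ± 12034 FPKM without Fbxw7, and Mir34b had 10961 ± 3076 and 21428 ± 4795 FPKM (SD, n = 3). For Mir34a the levels were 4046 ± 760.2 and 5763 ± 215 FPKM. The order held across genotypes too, since the lowest Mir34c library (30688 FPKM) was above the highest Mir34b library (26944), and the lowest Mir34b library (8791) was above the highest Mir34a library (6004).

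In the order of all tested miRNAs by mean FPKM, Mir34c stood at rank 28, between Mir125b-1 (53613 FPKM) and Mir145a (52173 FPKM), at 52686 FPKM. Mir34b stood at rank 45 with 16194 FPKM, between Mir369 (16687) and Mir431 (16123). Mir34a stood at rank 88 with 4905 FPKM, between Mir652 (4932) and Mir351 (4784). Over the 6 libraries together none of these neighbours differed from its member beyond the spread, since each was above the member in some libraries (2 to 4 of 6) and below it in the others. Mir369 and Mir431 were above Mir34b in each WT library and below it in each KO library.

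The ratio of 1 member to another within a library needs no scaling between libraries, and shows whether the members moved together. The ratios are of counts, uncorrected for length, and are compared between libraries only. Counts of Mir34c were 3.35, 3.20 and 2.99 times those of Mir34b in WT replicates 1 to 3 and 3.01, 2.97 and 2.77 times in Fbxw7 KO replicates 1 to 3. The genotypes overlapped narrowly, and the mean log2 ratio was 1.67 ± 0.0832 in WT and 1.54 ± 0.0629 in KO (SD, n = 3), a difference of −0.12 (exact 2-sided permutation p = 0.2). The pair thus kept nearly the same proportion over all 6 libraries while the level of each varied more than 2-fold.

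Against Mir34a the pair varied more. Mir34b had 1.62, 2.11 and 3.13 times the counts of Mir34a in WT replicates 1 to 3 and 2.81, 2.64 and 3.70 times in Fbxw7 KO replicates 1 to 3. The genotypes overlapped, because WT replicate 3 was above KO replicates 1 and 2. The mean log2 ratio was higher by 0.45 in KO (1.14 ± 0.481 and 1.59 ± 0.258, SD, n = 3, exact permutation p = 0.3). For Mir34c to Mir34a the ratios ran from 5.41 to 9.36 in WT and from 7.84 to 10.2 in KO, a difference of 0.33 on the log2 scale (exact permutation p = 0.3). Adjusted over the 3 ratios, each p was 0.3, and 3 against 3 libraries cannot give less than 0.1. The smaller rise of Mir34a was thus not shown to differ from those of Mir34b and Mir34c, and equal rises were not shown either.

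**Figure D3:**
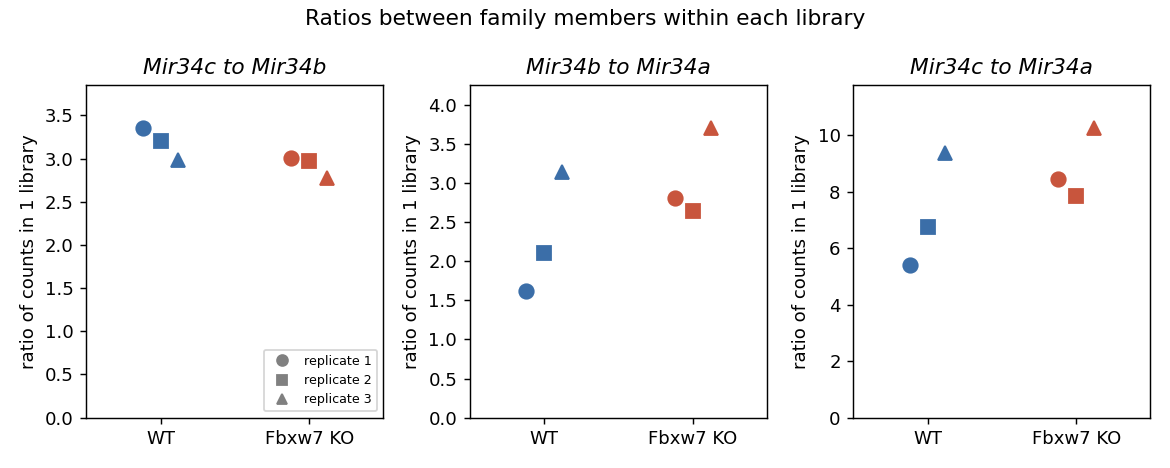
Ratio of the counts of 2 family members within each library (y axes, linear from 0) for WT and Fbxw7 KO, with marker shapes for the replicate numbers. Mir34c to Mir34b stays between 2.77 and 3.35 in all 6 libraries, while Mir34b to Mir34a ranges from 1.62 to 3.70 and Mir34c to Mir34a from 5.41 to 10.2 with overlapping genotypes.

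The Mir449 genes, which carry the same seed from a separate locus on chromosome 13, had few counts, and none of them passed the test. Mir449a had 24, 20 and 22 counts in WT replicates 1 to 3 and 12, 8 and 20 counts in Fbxw7 KO replicates 1 to 3, or 5.10 ± 0.540 and 3.88 ± 1.21 CPM (SD, n = 3). Its log2 fold change was −0.36 (SE 0.302, edgeR adjusted p = 0.417), and the genotypes overlapped. Mir449b had 0 counts in each WT library and 1 in each KO library, and Mir449c had between 0 and 2 counts everywhere, too few to test. Since the Mir449 genes are also markers of multiciliated epithelium, where Mir34b and Mir34c are high, their sum is given for that cell type: 0.00046% to 0.000593% of counts in WT and 0.000307% to 0.000613% in KO.

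Of the fibroblast markers, 9 of 10 rows had counts (Mir22 was at 0), and their sum was 53.3% to 54.6% of counts in WT and 54.8% to 57.8% in the KO libraries. Mir21a (mean 258009 CPM over the 6 libraries) and Mir143 (223740 CPM) made up most of it, so it says little of the other rows. Of the 8 tested members of that list Mir31 and Mir199b rose, Mir10a fell (log2 fold change −0.89, edgeR adjusted p = 0.00179) and the others did not pass. The call of Mir199b was lost when replicate 2 of either genotype was left out (largest adjusted p 0.0736). The 7 epithelial rows, none at 0 throughout, summed to 0.00211% to 0.00262% of counts in WT and 0.00168% to 0.00618% in KO. Mir203 made up most of this, with 19.3 ± 0.655 CPM in WT and 39.4 ± 23.6 CPM in KO (SD, n = 3). The log2 fold change of Mir203 was 1.02 (edgeR adjusted p = 0.133). Of the muscle rows 5 of 8 were at 0, among them Mir1a-1 and Mir133a-1, and the sum was 0.0141% to 0.0230% in WT and 0.0218% to 0.0409% in KO. Most of that sum was Mir206, with 173 ± 41.3 CPM in WT and 274 ± 100 CPM in KO (SD, n = 3). Its log2 fold change was 0.66 (edgeR adjusted p = 0.110). Blood rows (2 of 6 at 0, Mir142 and Mir155) stayed at or under 0.000438%. Neuronal rows (3 of 11 at 0, Mir9-1, Mir124a-1 and Mir124a-2) held 0.0136% to 0.0202%. A row at 0 may also reflect reads left out in counting, because reads that fit several places or rows were not counted. The part that these sums play in the results was not tested.

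The other miRNAs of the p53 list are those linked to p53 by induction of the gene or of its processing. A row in the table was found for 13, and 11 of these could be tested. Of the 11, 3 rose, 0 fell and 8 did not pass, where 15.2% of all tested miRNAs rose and 10.2% fell. The count of 3 dropped to 1 with TMM factors from outside the Dlk1-Dio3 region (an imprinted miRNA cluster on chromosome 12), in limma on log2(FPKM + 1) with no filter, and when WT replicate 2 or 3 or Fbxw7 KO replicate 1 or 2 was left out. The median log2 fold change of the 11 was 0.40, against 0.05 over all tested miRNAs, and 9 of the 11 had a positive value. Among all 283 tested miRNAs, ranked from the highest, positive values ran down to rank 151. Some of the 11 lie side by side, such as Mir143 and Mir145a, so they are not 11 separate observations. KO libraries lay above all WT libraries for 5 of the 11, where 23.7% of all tested miRNAs did so. In bulk RNA, more cells that express a miRNA and more of it per cell cannot be told apart, for the miRNAs that rose and for the Mir34 family.

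Mir29a, a repressor of collagen mRNAs, rose from 13645 ± 852 to 20925 ± 1300.1 CPM (SD, n = 3). Its log2 fold change was 0.62 ± 0.122 (SE), with an edgeR adjusted p of 0.0079. That call ended only without Fbxw7 KO replicate 2 (adjusted p = 0.0512) among 19 alternatives. Mir194-2, which lies beside Mir192 in a p53-responsive cluster, rose from 82.5 ± 14.1 to 124 ± 5.23 CPM (0.59, SE 0.168, adjusted p = 0.0347). Mir15a, which represses cyclins and Bcl2, rose from 20.9 ± 2.74 to 34.5 ± 7.44 CPM (0.72, SE 0.219, adjusted p = 0.0415). The last pair were less stable: Mir194-2 lost its call in 6 and Mir15a in 8 of 19 alternatives, with adjusted p up to 0.145 and 0.132. These included leaving out WT replicate 2 or 3 and leaving out Fbxw7 KO replicate 1 for both, Fbxw7 KO replicate 2 for Mir194-2, and WT replicate 1 or Fbxw7 KO replicate 3 for Mir15a. Mir194-2 shares 22 bases with Mir194-1, so its count is uncertain.

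Of the 8 that did not pass, the 3 with the most counts were Mir143, Mir145a and Mir192. Mir143, a smooth muscle and mesenchymal miRNA, had a log2 fold change of −0.03 (edgeR adjusted p = 0.883), and Mir145a beside it had 0.30 (adjusted p = 0.178). Mir192 had 360.4 ± 22.7 CPM in WT and 359 ± 3.03 in KO (SD, n = 3), a log2 fold change of −0.01 (adjusted p = 0.978), although it lies in the same cluster as Mir194-2. Mir194-1 and Mir29b-2 had too few counts to test (17 and 31 in all libraries).

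**Figure D4:**
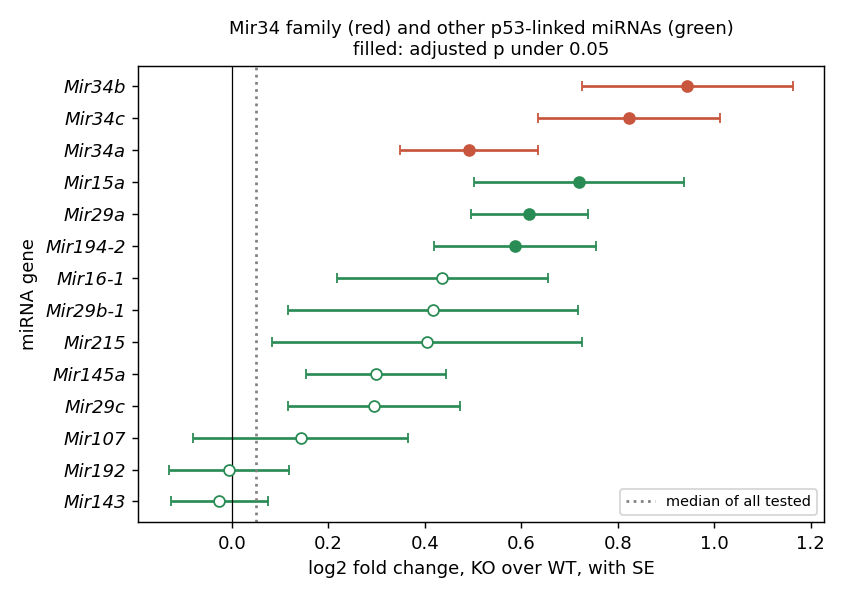
Log2 fold change of Fbxw7 KO over WT with its SE (x axis) for the Mir34 family (red) and the 11 other tested p53-linked miRNAs (green), with filled points for an adjusted p under 0.05 (edgeR). The family lies at 0.49 to 0.94, the others run from −0.03 to 0.72 with 3 filled, and the dotted line is the median of all tested miRNAs at 0.05.

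The miRNAs with the pattern most like each member over the 6 libraries were taken as those with the highest Pearson r of log2 CPM among 215 candidates with a mean of at least 10 CPM. The libraries fall into 2 genotypes, so r reflects both a difference between them and the order of the libraries within each. It takes no account of the size of the difference. Mir34b and Mir34c had an r of 0.998 with each other, while Mir34a had 0.748 with Mir34b and 0.782 with Mir34c.

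For Mir34a the nearest were Mir194-2 (r = 0.979), Mir339 (r = 0.971) and Mir29c (r = 0.956), of which Mir194-2 and Mir29c are also on the p53 list. Mir339 rose from 48.5 ± 6.40 to 78.2 ± 2.40 CPM (SD, n = 3), a log2 fold change of 0.69 (edgeR adjusted p = 0.0178). That call was lost when either WT replicate 2 or Fbxw7 KO replicate 2 was left out (largest adjusted p 0.0843). Mir29c had 0.29 (adjusted p = 0.256), and it shares 22 bases with Mir29b-1, so its count is uncertain. The share of the p53 list among the 215 candidates is not given, so its 2 members here are a description only.

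The nearest to both Mir34b and Mir34c was Mir296 (r = 0.982 and 0.984), which rose from 576 ± 42.4 to 772 ± 62.7 CPM (log2 fold change 0.42, edgeR adjusted p = 0.0365). That call ended in 8 of 19 alternatives, among them leaving out replicate 1 or 2 of either genotype (adjusted p up to 0.129). Mir1983 came next for Mir34b (r = 0.974) and had an r of 0.966 with Mir34c, with a log2 fold change of 0.62 (adjusted p = 0.0850). Mir3068 was the third for Mir34b (r = 0.957, log2 fold change 0.11, adjusted p = 0.568). Mir31, a fibroblast miRNA, was close to Mir34c (r = 0.967) and had a far larger rise, with a log2 fold change of 1.77 (SE 0.194, adjusted p = 0.000666) that held in all 19 alternatives.

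Across the 19 alternatives in scaling, filter, test and libraries, the log2 fold change of every member stayed positive. Mir34b ranged from 0.76 to 1.18 and Mir34c from 0.68 to 1.00, and both passed the test in 17 of the 19. Mir34a ranged from 0.37 to 0.63 and passed in 13. When the TMM factors came only from rows outside the Dlk1-Dio3 region, the median log2 fold change over all tested rows went from 0.05 to −0.07. The members then had log2 fold changes of 0.37 (Mir34a, edgeR adjusted p = 0.0771), 0.81 (Mir34b, adjusted p = 0.0323) and 0.69 (Mir34c, adjusted p = 0.0323). Measured from the median of all tested miRNAs, they were 0.44 (Mir34a), 0.89 (Mir34b) and 0.77 (Mir34c) with these factors and with the usual ones alike. A change of factors moves all rows and their median nearly alike, so this likeness was fixed in advance and lends the calls no support.

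**Figure D5:**
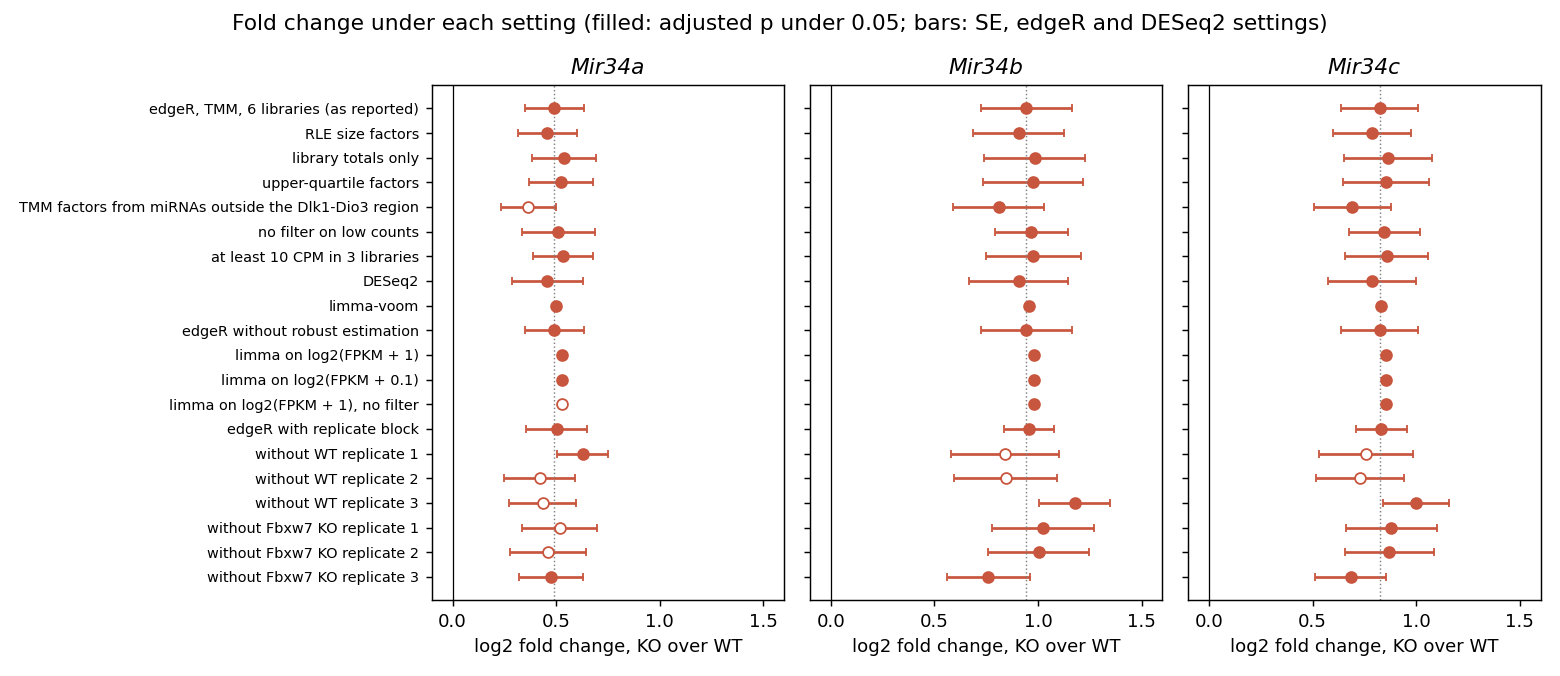
Log2 fold change of Fbxw7 KO over WT (x axes) for each member under each setting (rows), with SE bars for the edgeR and DESeq2 settings and filled points for an adjusted p under 0.05. Every point lies above 0. The open points of Mir34b and Mir34c are the fits without WT replicate 1 or WT replicate 2, and Mir34a has 6 open points.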

How the data were processed

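Small RNA libraries of mouse embryonic fibroblasts, 3 WT and 3 Fbxw7 KO, were made with the Illumina TruSeq chemistry, per the labels. The authors deposited raw counts of reads for each miRNA gene, made with featureCounts 1.6.4 with strand ignored and no counting of reads with several alignments, per the file headers. Per the submitters' processing notes, TopHat2 2.1.1, Cufflinks 2.2.1, deepTools and SAMtools 1.5 were used with mm10; trimming is not given in the sources read. The FPKM values deposited by the authors equal the counts divided by length and TMM-scaled total in every row (largest relative difference 8.63e-15), so they were used only for levels per length and in alternatives.

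Counts were tested with edgeR 4.0.16 (R 4.3.3; TMM, filterByExpr with a minimum count of 10 and total of 15, robust glmQLFit, glmQLFTest, 2-sided, genotype as the only term). This left 283 of 1155 rows, over which p-values were adjusted by Benjamini-Hochberg, and an adjusted p under 0.05 was called. The SE was taken from the F statistic. In all 43 miRNAs rose and 29 fell. Ratios of members were compared by exact permutation over libraries. Libraries of a genotype differed by more than sampling noise. The alternatives included DESeq2 1.42.0, limma 3.58.1, other scalings and filters, and each library left out.

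The members, the p53 list, the marker lists and the tests were chosen with earlier results of these data known. Beside the members, the miRNAs named are those with the same seed, the p53-linked miRNAs that passed or had the most counts, the 3 closest in pattern to each member, and the neighbours in FPKM. Of the 1155 rows, 926 had a hairpin in the RefSeq table. GENCODE M21 and RefSeq positions of the members equal those of the count table.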

Additional observations from a re-analysis of the deposited data

How the results depend on the processing

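Beyond the calls already given as lost, Mir34a lost its call in limma on log2(FPKM + 1) with no filter (log2 fold change 0.53, limma adjusted p = 0.0690), where more rows were tested, and with TMM factors from outside the Dlk1-Dio3 region (0.37). Leaving out 1 library gave log2 fold changes of 0.42 to 0.63 for Mir34a, 0.76 to 1.18 for Mir34b and 0.68 to 1.00 for Mir34c. The number of changed miRNAs was 72, and 34 to 78 with 1 library left out: the number was 42 when WT replicate 1 was left out, 35 for WT replicate 2 and 34 for Fbxw7 KO replicate 2. With the factors from outside the Dlk1-Dio3 region 30 were higher and 34 lower, against 43 and 29. Of the other p53-linked miRNAs 3 changed, and 1 did with those factors and in limma with no filter. With 1 library left out this number was 1 to 2, and it was 1 without WT replicate 2 or 3 and without Fbxw7 KO replicate 1 or 2. The cause was not tested. The differences in the 3 ratios kept their signs in all 8 alternatives each. Of these, the FPKM ratios and the same-numbered differences give the same mean difference by construction, so only leaving out a library could change a sign. No exact permutation p fell below 0.1, which none of these tests can give.

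Whether the replicate numbers of the titles pair the libraries is not given, and the values do not settle it. The deviations of same-numbered libraries correlated at −0.06, 0.14 and 0.16. WT replicate 1 correlated best with Fbxw7 KO replicate 2 (0.10) and WT replicate 2 with KO replicate 1 (0.15). WT replicate 3 correlated best with KO replicate 3 (0.16). With the replicate number as a block, edgeR gave log2 fold changes of 0.50 (Mir34a, adjusted p = 0.0362), 0.96 (Mir34b, adjusted p = 0.000738) and 0.83 (Mir34c, adjusted p = 0.0015), and the block ended the call of Mir15a. The SE went from 0.219 to 0.122 for Mir34b and from 0.188 to 0.124 for Mir34c, but from 0.143 to 0.148 for Mir34a. With the block 46 miRNAs were higher and 30 lower. Within same-numbered libraries the log2 ratio differed by −0.12 for Mir34c to Mir34b, 0.45 for Mir34b to Mir34a and 0.33 for Mir34c to Mir34a (KO minus WT), each with the same sign in all 3 pairs. For each the exact permutation p was 0.25, the smallest that 3 pairs can give. Read counts were high enough for all 3 members that the spread between libraries, not depth, limited the tests. The few counts of Mir449b and Mir449c allowed no comparison.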
